A study of Sus scrofa with 8 samples.

Results

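Blood T cells that carried both CD4 and CD8 (double positive) were compared with blood T cells that carried CD8 but not CD4 (CD8 single positive), in the same 2 sows. The comparison uses 4 of the 8 samples of the series: 1 sample of each population from each sow, chosen by the sample titles and the series' design text. Per the labels, blood mononuclear cells of Large White x Landrace sows were sorted into CD3+/CD4+/CD8+ and CD3+/CD4-/CD8+ fractions. No treatment was given in the labels, and the age of the sows is not given in the sources used here. Total RNA was amplified as cDNA from 10 ng and hybridised to oligonucleotide arrays. All 4 blood samples were labelled with Alexa Fluor 5, so no dye difference enters the contrast. The other 4 samples are the same populations sorted from colostrum, the first milk, of the same animals and labelled with Alexa Fluor 3. They were used for the estimate of the spread and for 1 comparison at the end. The animals are outbred and number only 2, so each difference is given for each sow. Each sample is an RNA average over sorted cells, in which fewer cells of a type and less RNA per cell cannot be told apart.

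The pig is unusual in having many mature T cells in blood that carry both coreceptors. In these cells CD8 is largely a homodimer of alpha chains, whereas cytotoxic T cells carry the CD8 alpha and beta heterodimer. Porcine double positive cells are described as helper T cells with previous contact with antigen, and helper cells act through surface signals and cytokines. Cytotoxic T cells kill target cells with granules that hold a pore-forming protein and proteases, and attract other leukocytes with chemokines.

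Levels below are normalized log2 intensities. A level at 5.34 is the floor set from the negative-control spots. A probe counted as above background on a blood array when it exceeded the 95th percentile of those spots, which lay between 6.78 and 7.05. Levels of different probes cannot be set against each other, so each gene is compared only with itself. From 28.9% to 36.1% of all probes were above background in a blood sample, and 28 to 60 probes were saturated. Over the 3773 genes tested, the levels correlated at r = 0.873 between the CD8 single positive samples and at 0.879 between the double positive samples. Within a sow, the populations correlated at 0.851 in sow 1 and 0.894 in sow 2, across genes, so the sows differed about as much as the populations did.

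The sort was visible in the coreceptor genes, which were used to choose the cells and are given as a check of the labels. CD4, the coreceptor for MHC class II, was at the floor in both CD8 single positive samples (5.34 and 5.34) and at 9.72 in sow 1 and 8.41 in sow 2 in double positive cells. CD8B, which encodes the beta chain, was at 7.68 and 8.95 in CD8 single positive cells and at 5.34 and 5.37 in double positive cells. The first was therefore at least 4.40-fold higher and the second at least 2.68-fold lower in double positive cells, since each probe was not well above background in the other population. A second CD4 probe differed by 2.91 and a second CD8B probe by -1.84. CD8A, the alpha chain, was above background in all 4 samples, at 8.93 and 9.63 in CD8 single positive and at 8.04 and 7.21 in double positive cells. The groups did not overlap, and the difference of CD8A was -1.66 ± 0.52 (SE, n = 2 per group). The CD3 chains, signalling parts of the T cell receptor, were bright in every sample: CD3D lay between 11.69 and 12.08 and CD3E between 11.77 and 12.25, with groups that overlapped or differed by little. CD3D differed by -0.26, CD3G by -0.10, CD247 by 0.70 and CD3E by 0.04, with SEs of 0.49 to 0.79. All of these samples therefore showed the markers of T cells, and CD4 and CD8B divided them as labelled.

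**Figure D1:**
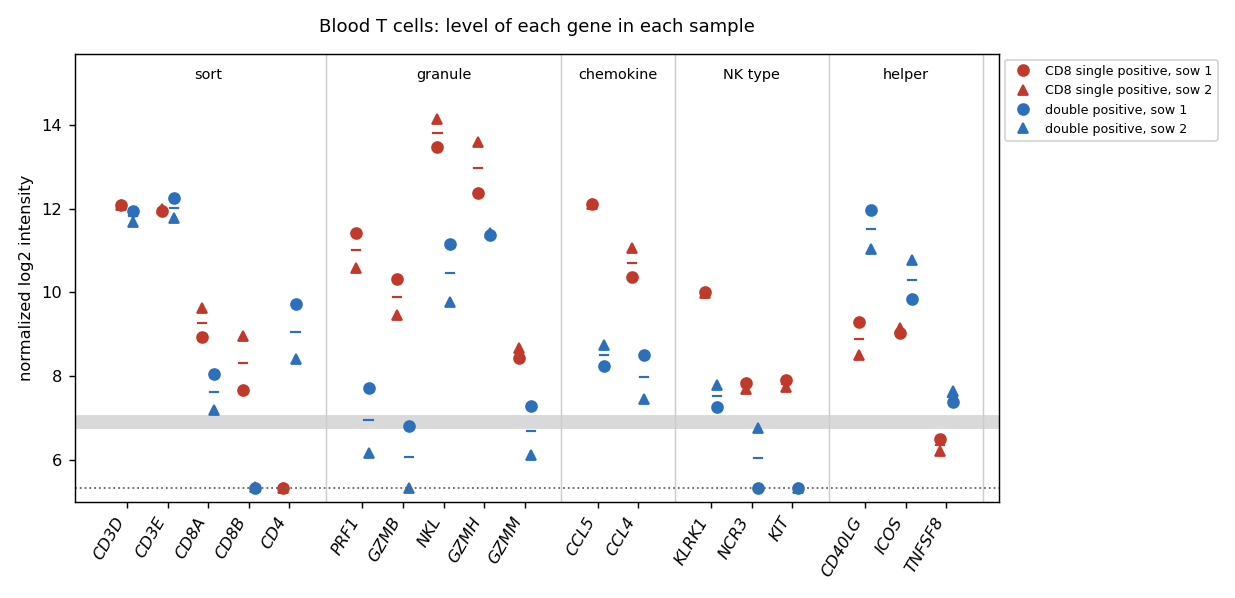
Normalized log2 intensity (vertical axis) of 18 genes in the 4 blood samples. Each symbol is 1 sample (circles sow 1, triangles sow 2; red CD8 single positive, blue double positive), short lines are group means, the grey band is the range of background thresholds from 6.78 to 7.05 and the dotted line is the floor at 5.34. CCL5, PRF1, NKL and KLRK1 are higher in both CD8 single positive samples, and CD40LG and ICOS in both double positive samples.

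Besides the genes of the sort, several genes of cytotoxic cells had large differences in both sows, with lower levels in double positive cells, and the helper signal CD40LG was higher in them. CCL5, a chemokine that effector T cells release, was 12.3-fold lower in double positive cells. NKL, which encodes the antimicrobial granule protein NK-lysin, was 10.2-fold lower. PRF1, which encodes the pore-forming protein perforin, was also lower in both sows, but above background in only 1 of the 2 double positive samples. CD40LG, the ligand by which helper T cells activate B cells and antigen-presenting cells, was 6.09-fold higher. None of these differences passed limma's test after Benjamini-Hochberg adjustment over all 3773 genes, with 2 samples in each group. The smallest adjusted p was 0.0906, for CCL5.

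The list of cytotoxic granule genes was written with earlier results of these data known, as were the other lists. It had 18 genes, of which 12 were tested, and none was lost to the filter on dim probes. PRF1 was at 11.42 in sow 1 and 10.58 in sow 2 in CD8 single positive cells, and at 7.73 and 6.18 in double positive cells. Both double positive samples lay well below both CD8 single positive samples, and that of sow 2 was not above background. The difference of PRF1 was -4.05 ± 0.65 (SE, n = 2 per group; adjusted p = 0.234). GZMB, the granzyme B protease that starts apoptosis in target cells, was at 10.31 and 9.47 in CD8 single positive cells and at 6.81 and 5.34 in double positive cells, where 1 of 2 arrays measured it. Its difference was -3.81 ± 0.85 (adjusted p = 0.447), and a second GZMB probe gave -3.09. NKL was at 13.48 and 14.14 in CD8 single positive cells and at 11.15 and 9.77 in double positive cells. NKL stayed above background in double positive cells of both sows, and differed by -2.33 in sow 1 and by -4.37 in sow 2 (mean -3.35 ± 0.65; adjusted p = 0.389).

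GZMM, which encodes granzyme M, a protease of cytotoxic and natural killer cells, was at 8.42 and 8.67 in CD8 single positive and at 7.28 and 6.12 in double positive cells. The groups did not overlap, with a difference of -1.85 ± 0.52 and -1.91 by a second probe. GZMH, named here after its values were seen, encodes another granzyme and was at 12.37 and 13.59 against 11.38 and 11.42. Its difference was -1.58 ± 0.54, and -1.75 by a second probe. Granzymes form a family of similar genes, and signal may be shared between their probes. Of the 12 genes of the list, 6 were lower in double positive cells in both sows and 1 was higher, beside 23% and 26.4% of all genes tested. At least 2-fold in both sows, 4 were lower and 0 higher, beside 2.15% and 2.7% of all genes. The groups did not overlap for 5 of the 12 in the lower direction, beside 15.8% of all genes, and for 1 in the higher direction, beside 18.1%. The limma test called 0 of the 12, as it called 0% of all genes. The median difference of the list was -0.23, against 0.04 over all genes tested, and -0.90 over the 10 genes above background, with those seen in only 1 population at their bound. Genes of granule traffic differed little: LAMP1, LAMP2, RAB27A and STXBP2, which serve lysosomes and secretion in many cells, differed by -0.15 to 0.12. FASLG and GZMK were also tested, and neither was among the 5 genes that were lower without overlap. GZMA, which encodes granzyme A, was above background on no blood array by its tested probe. The median was 0.11 in sow 1 and -1.14 in sow 2, so the list as a whole was lower only in sow 2, whereas PRF1, GZMB, NKL, GZMM and GZMH were lower in both.

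Of 9 chemokine genes, 7 were tested. CCL5 was at 12.11 and 12.12 in CD8 single positive cells and at 8.25 and 8.74 in double positive cells, all above background. The sows lay close together within each population, and the groups were far apart. The difference was -3.62 ± 0.47 (SE, n = 2 per group; adjusted p = 0.0906), and 2 other probes gave -2.69 and -1.63. CCL5 passed the test under 4 other settings: cyclic loess normalization (adjusted p = 0.0196), normexp background correction (0.00551), a higher floor (0.0163) and a filter for probes above background in a blood group (0.019). Under the 18 other settings it did not pass, with an adjusted p of 0.0576 to 0.818, among them 0.124 with 75th percentile scaling, 0.467 with quantiles of the blood samples alone and 0.740 with only the blood samples in the fit. CCL4, which encodes another chemokine of activated cytotoxic cells, was at 10.37 and 11.05 against 8.51 and 7.47, a difference of -2.72 ± 0.60 (adjusted p = 0.447). It was lower in both sows, by a fold that was larger in sow 2 (-1.86 in sow 1 and -3.58 in sow 2). CCL4 belongs to a family of near-identical chemokine genes, and its probe may share signal with them. Of the 7 genes, 4 were lower in both sows and 0 higher, beside 23% and 26.4% of all genes tested. The median was -0.77, but -0.25 over the 5 genes above background, with those seen in 1 population at their bound. CXCL8, which attracts neutrophils, differed by -0.25. The others were above background on at most 1 blood array.

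Genes typical of natural killer cells, some of which are also used by cytotoxic and gamma delta T cells, also had lower values in double positive cells. Of 19 such genes, 7 were tested and 1, NCR1, was removed as dim. In double positive cells 5 of 7 were lower in both sows and 0 higher, beside 23% and 26.4% of all genes tested, with a median of -1.47 (-0.87 with genes at their bound). KLRK1, which encodes the activating receptor NKG2D, was at 10.02 and 9.98 in CD8 single positive cells and at 7.26 and 7.79 in double positive cells. All 4 values were above background and the groups were far apart, with a difference of -2.47 ± 0.51 (adjusted p = 0.447) and of -2.16 by a second probe. KIT, the receptor for stem cell factor, was at 7.91 and 7.74 in CD8 single positive cells and at the floor on both double positive arrays, and was therefore at least 1.91-fold lower. Its 2 other probes were above background on no blood array. NCR3, which encodes the activating receptor NKp30, was at 7.83 and 7.69 against 5.34 and 6.75, at least 1.83-fold lower. GPR56, an adhesion receptor of cytotoxic lymphocytes, was at 10.24 and 12.39 against 9.95 and 9.74, and its difference rested on sow 2 (-0.30 in sow 1 and -2.65 in sow 2). The adaptor gene HCST, which NKG2D needs to signal, differed by only -0.17, with the groups overlapping. Of the inhibitory receptor genes, 3 of 9 were tested, and of the tested probes that of LAG3 alone was above background in blood, at 7.02 and 8.15 against 6.81 and 5.34 (-0.21 in sow 1 and -2.81 in sow 2). ENTPD1, which encodes the ectonucleotidase CD39, had another probe above background on both CD8 single positive arrays, at 7.58 and 8.28 against 6.06 and 5.86, whereas its tested probe differed by 0.49 and was above background on no blood array.

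Helper signals were higher in double positive cells. Of 13 such genes 6 were tested, with none removed as dim. CD40LG was at 9.29 and 8.51 in CD8 single positive cells and at 11.97 and 11.04 in double positive cells. It was bright in all 4 samples, and the sows gave nearly the same difference (2.68 in sow 1 and 2.53 in sow 2; mean 2.61 ± 0.58; adjusted p = 0.447). ICOS, a costimulator of helper T cells, was at 9.03 and 9.15 against 9.83 and 10.76, a difference of 1.21 ± 0.50 and of 1.39 by a second probe. TNFSF8, which encodes the CD30 ligand, was above background only in double positive cells, at 7.38 and 7.64 against 6.51 and 6.21, at least 1.5-fold higher. Only 3 of the 6 genes were above background on any blood array: CD40LG, ICOS and TNFSF8. These were higher in both sows with groups that did not overlap, beside 26.4% and 18.1% of all genes tested. TNFSF8 is among these 3 only through its double positive arrays, and the shares include genes above background on no blood array. CTLA4, IL21 and IL2 were above background on no blood array, so for these genes no level was measured. The median was 1.05 over all 6 tested genes, those without a measured level included, and 1.21 over the 3 above background.

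**Figure D2:**
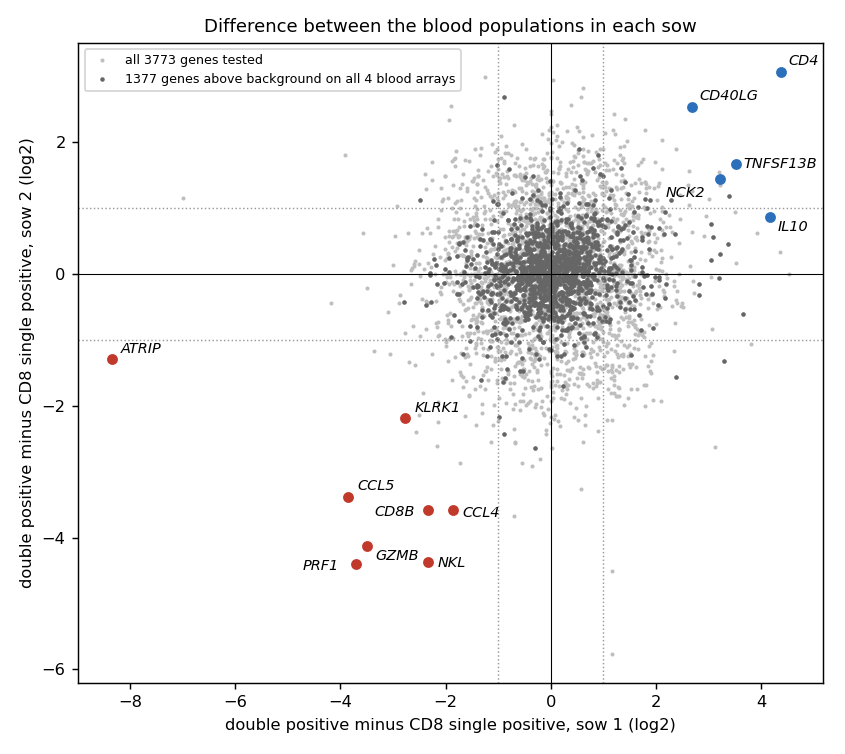
Difference between double positive and CD8 single positive blood cells in sow 1 (horizontal axis, log2) and in sow 2 (vertical axis, log2) for 3773 genes (light grey) and for the 1377 of them above background on all 4 blood arrays (dark grey). Coloured points are named genes, and dotted lines mark a 2-fold difference. Most genes form a round cloud about 0, and PRF1, GZMB, NKL, CCL5, CCL4, CD8B and KLRK1 at the lower left and CD4 and CD40LG at the upper right lie outside it in both sows.

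Among cytokine genes, 17 of 21 were tested. TNFSF13B, which encodes the B cell survival factor BAFF, was at the floor in both CD8 single positive samples and at 8.86 and 7.01 in double positive cells. It was at least 2.01-fold higher (adjusted p = 0.562), and close to the threshold in sow 2. IL10, an anti-inflammatory cytokine, was at 5.34 and 6.37 in CD8 single positive cells and at 9.52 and 7.23 in double positive cells. It was above background only in double positive cells, at least 2.73-fold higher, with most of the difference in sow 1 (4.17, against 0.87 in sow 2), and a second probe was above background on no blood array. LTB, lymphotoxin beta, was at 11.11 and 12.21 against 12.23 and 13.18. Its difference was 1.12 in sow 1 and 0.98 in sow 2, but as the sows differed by as much, the groups were only just apart. FLT3LG, a growth factor of dendritic cells, differed by -0.80 ± 0.67. TNF differed by -0.09 and TGFB1 by 0.42, and IFNG, the interferon gamma gene, was above background on 1 blood array, that of CD8 single positive cells of sow 2 (7.20). The tested probes of IL4, IL5, IL13 and IL17A, cytokines of helper subsets, were above background on no blood array. The list had a median of 0.17, with 6 genes higher in both sows and 3 lower, beside 26.4% and 23% of all genes tested.

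Among cytokine receptors, 16 of 24 were tested, with a median of 0.32. In both sows 8 were higher and 3 lower, beside 26.4% and 23% of all genes tested. IL6R, the interleukin 6 receptor, was at 5.77 and 7.10 in CD8 single positive and at 8.40 and 8.15 in double positive cells (1.83 ± 0.69). Its 2 other measured probes gave 1.01 and 2.36, so 3 probes had the same sign. IL6ST, its signalling partner, was at 7.22 and 7.92 against 8.16 and 9.43 (1.23 ± 0.70). IL4R differed by 0.71 ± 0.48, but by -0.43 with another probe, and IL2RG, the common gamma chain, by 0.68 ± 0.50 and by 0.29. IL7R was level, at 8.77 and 8.64 against 8.81 and 8.79.

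Of the regulatory T cell list, 5 of 11 genes were tested, and IL10 was the only one whose tested probe was above background on both arrays of a population; ENTPD1, given above, is also on this list. FOXP3, the defining factor of regulatory T cells, was above background on no blood array by its tested probe and on 1, of double positive cells, by another. The gamma delta list gave 1 tested gene of 9, CD9, a tetraspanin that other cells also carry. CD9 was at 8.74 and 8.88 against 9.65 and 10.69 (1.35 ± 0.52), and 3 other probes gave 1.11, 1.46 and 2.30. CD163L1, a defining gene of porcine gamma delta cells, had 1 probe, above background on no blood array.

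T cell fate factors showed no common direction. Of 23 genes 10 were tested, with a median of -0.05. In both sows 3 were higher and 5 lower, beside 26.4% and 23% of all genes tested. RUNX3, a factor of the cytotoxic lineage, was at 9.27 and 8.62 in CD8 single positive and at 8.40 and 7.85 in double positive cells, a difference of -0.82 ± 0.50. ID2, which supports effector cells, was at 10.13 and 9.89 against 9.05 and 9.09 (-0.94 ± 0.52), and 4 other probes gave -0.59, -0.56, -0.36 and -0.31. STAT5A, a signal transducer of interleukin 2, was at 7.96 and 8.73 against 10.11 and 9.33 (1.37 ± 0.68), with other probes at 0.22 and 0.73. STAT6 differed by -0.82, and by 0.32 with another probe, so its probes disagree. RORA and PRDM1 were higher by 0.57 and 0.72 (other PRDM1 probes gave -0.21 and 0.34), and EOMES, measured on 1 array, was at 7.23 and 6.76 against 5.51 and 6.59.

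Genes of naive cells and of lymph node homing were close to level, with a median of 0.10 over 5 tested genes of 10. CCR7, which guides T cells into lymph nodes, was at 9.30 and 8.92 against 9.86 and 10.41 (1.03 ± 0.50). FOXO1, which maintains naive T cells, was at 8.93 and 9.23 against 10.80 and 9.61, with other probes at 0.14 and 1.16. LEF1, a factor of naive T cells, was at 10.56 and 10.72 against 9.48 and 10.63, with other probes at -0.55 and -0.65. KLF2 was lower in sow 1 only, at 12.40 and 11.77 against 11.35 and 11.88, and its other measured probe gave 1.30 in sow 1 and -0.38 in sow 2. Of 25 genes of memory, tissue homing and adhesion, 14 were tested. In both sows 5 were higher and 4 lower, beside 26.4% and 23% of all genes tested. ITGB1, the integrin beta 1 chain, which memory T cells carry at a high level, was at 10.18 and 10.82 against 11.33 and 12.08. It was higher in both sows (1.14 and 1.27), and 5 other probes gave 0.68 to 1.5. CCR9, a gut homing receptor, was above background only in CD8 single positive cells, at 8.11 and 7.93 against 6.41 and 6.73, at least 2.19-fold lower in double positive cells. ITGB2 and CXCR6 were lower mainly in sow 1 (-2.11 and -2.17, against -0.28 and -0.15 in sow 2).

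MHC class II genes, which activated and memory T cells of the pig transcribe, were dimmer in double positive cells. Of 10 genes 9 were tested, with a median of -0.72. In both sows 5 were lower and 1 higher, beside 23% and 26.4% of all genes tested. SLA-DQA1 was at 11.88 and 12.05 in CD8 single positive and at 11.02 and 10.81 in double positive cells (-1.05 ± 0.47), and its 8 other measured probes gave -1.32 to -0.48. SLA-DRB1 was at 13.10 and 13.11 against 12.20 and 11.47 (-1.27 ± 0.66), with other probes at -1.48, -0.11 and -0.11. SLA-DRA differed by -0.53 by the brightest probe, which was tested, while its 6 other measured probes gave -1.74 to -1.53. SLA-DMB, which loads peptide onto class II molecules, was at 8.04 and 8.67 against 5.34 and 7.33 (-2.01 ± 0.71), and SLA-DMA differed by -0.72 ± 0.89. Class II genes belong to a family of similar sequences. The B cell gene CD79A, a chain of the B cell receptor, moved with this list: it was at 8.82 and 8.54 in CD8 single positive cells and at 6.31 and 6.40 in double positive cells, at least 3.45-fold lower there. The B cell list had 2 tested genes, whose summed level was 13.88 to 15.63 in CD8 single positive and 11.75 to 12.85 in double positive samples, and the other, FCRLA, was above background on 1 array. A further gene of that list, BLNK, was above background on no blood array. The part of B cell RNA in the class II result was not tested.

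Markers of other cell types were mostly near the threshold. Of 6 tested monocyte and dendritic cell genes, LYZ was above background on both arrays of CD8 single positive cells, at 7.63 and 7.55 against 5.99 and 7.0, at least 1.62-fold lower in double positive cells, and another probe differed by -0.55. CD14 was at 7.48 and 6.97 against 7.12 and 5.34. By their tested probes AIF1 differed by -0.56, CD86 by -0.34, MRC1 by 0.26 and CD163 by 0.04, each above background on at most 2 of 4 arrays. Another AIF1 probe was above background only in double positive cells, at 7.39 and 7.02 against 5.34 and 6.45, and so went the opposite way. The summed level of the 6 genes was 39.29 to 41.72 in CD8 single positive and 37.26 to 38.39 in double positive samples. The neutrophil genes S100A8 and S100A12 followed the sow: S100A12 was at 6.78 and 5.34 in sow 1 and at 9.05 and 9.81 in sow 2, and S100A8 at 6.40 and 7.04 in sow 1 and at 8.43 and 9.05 in sow 2. The platelet gene GP9 was at 9.10 and 9.09 against 9.55 and 9.35, and ITGA2B and SLC4A1 differed by 0.10 and 0.50. Of the milk and mammary genes, CSN1S1 was at 8.60 in CD8 single positive cells of sow 2, against 5.34 to 6.15 in the other samples, and another of its probes was at 7.13 and 7.57 against 5.71 and 5.71. Another probe of CSN3 was at 7.08 and 8.15 in CD8 single positive cells and at 5.34 and 7.33 in double positive cells. LALBA was at 6.26 and 5.34 against 7.13 and 7.19. By their tested probes CSN3 differed by -0.54, CSN2 by 0.40, KRT8 by 0.74 and MUC1 by 0.27.

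Genes of T cell receptor signalling were level as a group, with a median of 0.03 over 12 tested genes of 26. TXK, a kinase of T cells, was at 8.67 and 8.59 against 5.79 and 8.15, mostly from sow 1. CAMK4, a calcium-dependent kinase, was at 9.37 and 8.89 against 10.85 and 9.67 (1.13 ± 0.62). LCK, the kinase bound to both coreceptors, was at 8.71 and 9.11 against 7.93 and 8.44 (-0.73 ± 0.49), but a second probe gave 0.23. CD2, an adhesion receptor, differed by 0.60 ± 0.49 and by 0.62 with a second probe.

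The lists of general cell functions had medians between -0.33 and 0.44. Of 10 tested proliferation genes, 3 were higher in both sows and 0 lower, beside 26.4% and 23% of all genes tested. PCNA was among the 3 (0.57 ± 0.49). Of 9 glycolysis genes, 6 were higher in both sows and 0 lower, beside 26.4% and 23% of all genes, with a median of 0.43 (0.39 in sow 1 and 0.53 in sow 2). In that list HIF1A differed by 0.74 ± 0.48, LDHB by 0.70 ± 0.52 with 11 other probes at 0.09 to 0.91, PGK1 by 0.49 and PDK1 by 0.43. The other measured probes gave -0.08 to 0.55 for PGK1 and -0.19 for PDK1. Heat shock genes were split, with HSP90AA1 at 0.84, HSPD1 at 0.76, HSP70.2 at 1.14 and DNAJB1 at -0.84, and a median of -0.04. Another DNAJB1 probe gave 0.52, and 5 other HSP90AA1 probes gave -0.13 to 0.79. Of the immediate early genes, FOS was at 10.44 and 10.71 against 11.04 and 12.14 (1.01 ± 0.54), with 3 other probes at 0.63 to 1.41. NFKBIA differed by 0.92, with other probes at -0.36 and 0.03, NR4A3 by -0.89 and JUN by -0.77. Interferon-stimulated genes had a median of 0.10, with IFIT1 at -0.89, ISG15 at 0.77, IRF1 at 0.36 and IFIT3 at 0.19. Of the apoptosis genes, BID differed by 1.47, CASP8 by 0.86, XIAP by 0.71 and BCL2L11 by -0.77, with a median of -0.15. By its tested probe CASP8 was above background only in double positive cells, at least 1.54-fold higher. Lipid synthesis genes had a median of -0.16, with SCAP at 1.37, SCD at -1.20 (other probes -0.69 and -1.37), LPIN1 at -0.36 and INSIG1 at -0.16. The 36 genes of cytosolic ribosomal proteins had a median of -0.05, and none was at least 2-fold apart in both sows. RPL35 differed by 0.66, RPL18 by 0.41, RPS16 by -0.44 and RPL6 by -0.39, the last with 11 of its 12 other probes at 0.01 to 0.47.

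**Figure D3:**
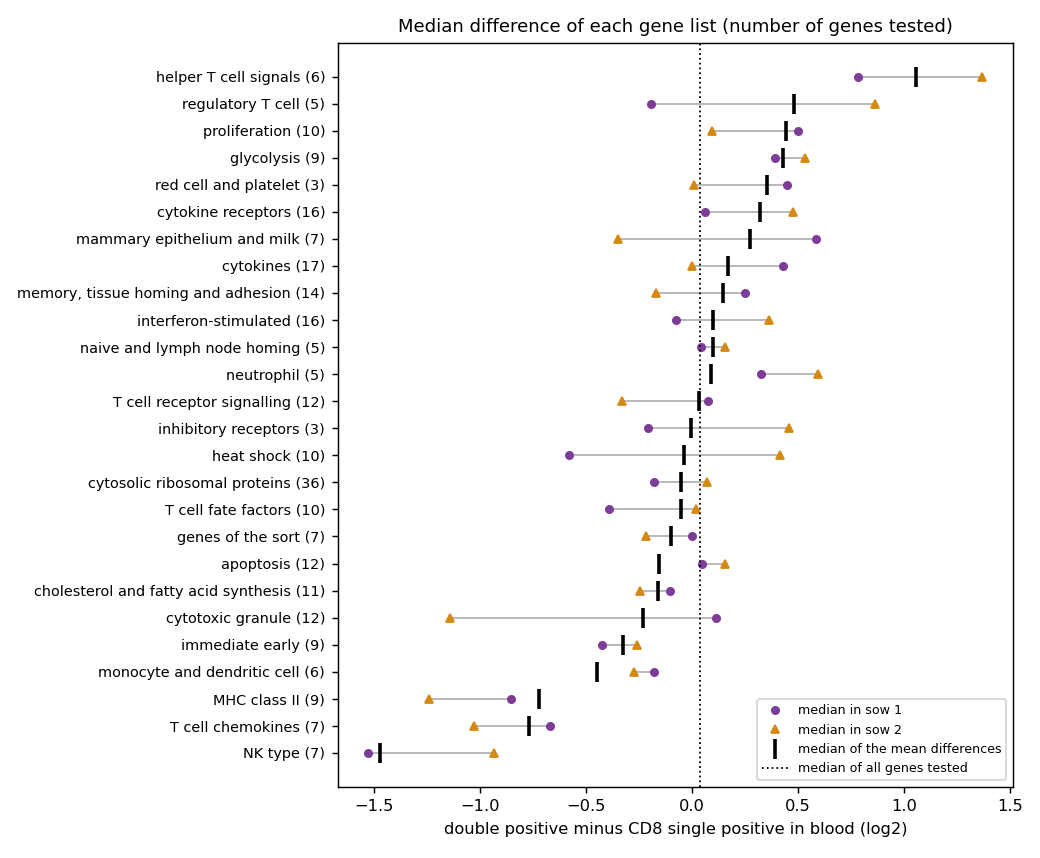
Median difference between double positive and CD8 single positive blood cells (horizontal axis, log2) for each gene list with at least 3 tested genes, whose number is in brackets. Circles are the median in sow 1, triangles in sow 2, bars the median of the mean differences, and the dotted line the median of all genes tested (0.04). Helper signals are highest (1.05), and MHC class II (-0.72), T cell chemokines (-0.77) and NK type genes (-1.47) lowest, with both sows on the same side. The helper and chemokine medians include genes above background on no blood array. Without those genes, and with genes seen in 1 population at their bound, these 2 medians were 1.21 and -0.25.

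The rule for named genes took the 12 largest positive differences among genes at least 2-fold higher in both sows and above background in both double positive samples. Beside CD4, CD40LG and TNFSF13B, already given, these came from several functions. NCK2, an adaptor that couples receptors to the cytoskeleton, was at 7.89 and 8.82 in CD8 single positive and at 11.11 and 10.26 in double positive cells (2.33 ± 0.56), but a second probe differed by only 0.31. MTR, the methionine synthase, was at 6.94 and 8.91 against 10.33 and 10.08 (2.28 ± 0.84), with other probes at -0.76 and 1.28. For NCK2 and MTR the probes thus disagree in size or sign. The fatty acid binding protein gene FABP3 was at least 4.20-fold higher, at 6.79 and 6.64 against 10.02 and 7.98. CIB1, a calcium-binding protein, was at least 2.34-fold higher, F13A1, a coagulation factor subunit, at least 1.83-fold, and TANK, an adaptor of NF-kappa-B signalling, at least 1.47-fold. Another F13A1 probe was above background on no blood array. ABCB1, which encodes a drug efflux pump, was at the floor in both CD8 single positive samples and at 7.46 and 7.37 in double positive cells, at least 1.40-fold higher. C1R, a complement protease, was at 6.81 and 6.39 against 8.59 and 8.57 (1.98 ± 0.48; adjusted p = 0.562), and passed the test with the higher floor (adjusted p = 0.000564). HIVEP1, a zinc finger factor, differed by 1.88 ± 0.86.

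Of the 12 largest negative differences, PRF1, GZMB, CCL5, NKL, CD8B, CCL4, KIT, KLRK1 and CD79A have been given. LOC396700, a gene that the annotation leaves without a name, was at 8.89 and 9.44 in CD8 single positive cells and at 6.72 and 6.83 in double positive cells, at least 4.83-fold lower. POT1, a protein of telomeres, was at 7.08 and 8.22 against the floor in both double positive samples, at least 1.69-fold lower. ATRIP, a partner of the DNA damage kinase ATR, was at 14.16 in CD8 single positive cells of sow 1 but at 7.18 in those of sow 2, and at 5.82 and 5.89 in double positive cells. Its difference of -4.81 ± 2.78 therefore rests on 1 sample.

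Whether the sows gave the same differences depended on brightness. Over all 3773 genes the differences of sow 1 and sow 2 correlated across genes at r = 0.08 (Spearman's rho 0.06). Over the 1377 genes above background on all 4 blood arrays r was 0.19, and over the 943 brightest genes it was 0.26. Genes are not independent replicates, and the 4 samples share their amplification and normalization. At least 2-fold in the same direction in both sows were 183 genes, and 151 were at least 2-fold in opposite directions. Among the 1377 genes the numbers were 22 and 7. The 22 consisted of 13 higher and 9 lower in double positive cells. Of these 22, those outside the rule for named genes were chosen after their values were seen. Among them were KCNA3, a potassium channel of T cells (1.70), LMNA, a nuclear lamin (1.47, but 0.18 by a second probe), CTSH, a lysosomal protease (1.35, but 0.32), CDKN1A, an inhibitor of the cell cycle (1.13, with 0.30 and 1.04), and CUTA (1.47, with 1.04 to 1.07 by 3 others). On the lower side were CALR, a chaperone of the endoplasmic reticulum (-1.47), HVCN1, a proton channel (-1.44), ITM2C (-1.23, and -0.67 by a second probe), BIN1 (-1.13, with probes from -0.93 to 0.92) and ZNF687 (-1.28).

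The limma test of the blood contrast called 0 genes higher and 0 lower (0% of 3773 in either direction). At an unadjusted p under 0.05, 117 genes (3.1%) were higher and 93 (2.46%) lower in double positive cells. Together they number 210, beside the 188.65 that this threshold would give if no gene differed. For 52 named genes with other measured probes, 105 of 138 such probes shared the sign of the tested one, 33 did not, and 83 shared the sign and reached at least 0.5 of its size. Many named genes were chosen by their differences in these same samples, and probes of 1 gene are not independent. The share over all genes was not computed, so these counts do not measure how well probes agree.

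The same contrast in colostrum was set beside that in blood, and the difference between the contrasts was tested. All colostrum samples carried the other dye, so source and dye cannot be told apart in these gaps. A blood and a colostrum sample may also have shared an array, since the sources do not say which samples did. Likeness between blood and colostrum therefore cannot be told apart from an effect of a shared array. Before normalization the negative-control medians were 1 to 8 units in blood and 68 to 81 in colostrum. The effect of this on the gaps of dim genes was not tested. CCL5 differed by -3.87 in colostrum and -3.62 in blood, PRF1 by -3.85 and -4.05, NKL by -3.43 and -3.35, KLRK1 by -2.01 and -2.47, CCL4 by -2.30 and -2.72 and CD40LG by 2.16 and 2.61. The gaps between blood and colostrum for these genes were 0.25 ± 0.67, -0.20 ± 0.92, 0.08 ± 0.92, -0.46 ± 0.73, -0.42 ± 0.85 and 0.44 ± 0.83, each within 1 SE of 0. For GZMB and CD8B the gaps were wider, at -1.38 ± 1.2 (-3.81 in blood and -2.43 in colostrum) and 0.78 ± 0.76 (-2.96 and -3.74). With errors of that size, gaps of a few fold would not have been seen. Of 115 named genes, 59 went the same way in both sows of both sources and 16 went one way in both sows in blood and the opposite way in both in colostrum. Many of these genes were chosen by a shared sign of the sows in blood, and others by the size of their gap. The share over all genes was not computed, so these counts do not measure agreement between the sources. The largest gaps with the same sign in both sows were those of PISD (3.24 ± 0.76), M6PR (3.14 ± 1.54), CLN3 (2.90 ± 0.98), UCHL3 (2.84 ± 0.91), CD4 (2.80 ± 0.92) and SHC1 (2.79 ± 1.12). For CD4 this is the smaller difference in colostrum, 0.92 against 3.72 in blood. In blood M6PR differed by 3.22 in sow 1 and 0.30 in sow 2, CLN3 by 3.36 and 0.46, and SHC1 by 3.20 and -0.06. These differences thus rested mainly on sow 1, and that of UCHL3 on sow 2 (0.62 in sow 1 and 2.82 in sow 2). PISD, a mitochondrial enzyme of lipid synthesis, was higher in double positive cells of blood (1.38 and 1.77 in the sows) and lower in those of colostrum (-2.37 and -0.97). Its probe was above background on no CD8 single positive array of blood and on no double positive array of colostrum. In blood PISD was at least 1.30-fold higher, and its gap includes values below the threshold. Other probes of M6PR gave 0.05, 0.78 and -0.03 in blood, those of UCHL3 -0.05 and -0.47 and those of SHC1 -0.85, -0.17 and -1.48. The other probes of CLN3, at 0.47 and 0.08, were not above background on both blood arrays of either population. Gaps between blood and colostrum were not computed for these other probes. Further genes with opposite signs included ABCB1 (2.07 in blood and -0.60 in colostrum), CAMK4 (1.13 and -1.59) and LEF1 (-0.58 and 1.70). ABCB1 was above background only in double positive cells in blood and only in CD8 single positive cells in colostrum. None of the gaps passed limma's test: 0 genes were called (0%), the smallest adjusted p was 0.997, and 87 genes (2.31%) had an unadjusted p under 0.05. That is fewer than the 188.65 that this threshold would give if no gene differed.

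**Figure D4:**
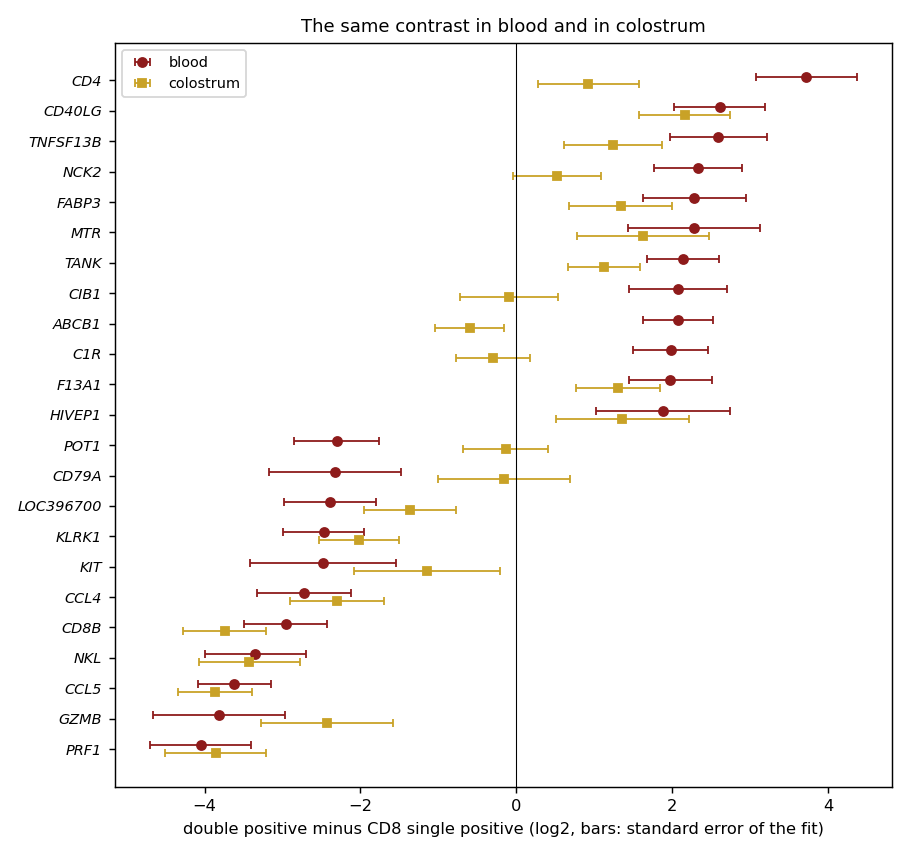
Difference between double positive and CD8 single positive cells (horizontal axis, log2) in blood (dark red circles) and in colostrum (yellow squares) for the genes with the largest differences in blood, ATRIP excepted. Bars are the standard error of the limma fit, with n = 2 samples per group. For PRF1, CCL5, NKL, CCL4, KLRK1 and CD40LG the bars of blood and colostrum overlap, and CIB1, ABCB1, C1R, CD79A and POT1 are near 0 or opposite in colostrum. There POT1 was above background on no array, and CIB1 and C1R on 1 CD8 single positive array each. The colostrum values of POT1, CIB1 and C1R are therefore not measured differences. That of CD79A is a mean of -1.03 in sow 1 and 0.72 in sow 2.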

How the data were processed

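Each deposited sample file holds a probe name and 1 intensity for each of 45220 spots. Some values lie below 0, so a background appears to have been subtracted by the authors; no scanner, image software or background method is named in the labels or headers. A matrix of 43603 probes, deposited by the authors on a log2 scale, was also read, and quantile normalization of the intensities gave 79.0% of its values within 0.01; it served as an alternative. The sources do not say which samples shared an array.

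Control spots were left out and spots of 50 repeated probes averaged. The 8 samples were quantile normalized, floored at 40.6 units (the mean normalized median of 153 negative-control spots; 10.9% of tested blood values lay there), and log2 was taken. The platform annotation gives 10278 probes 1 symbol and 33325 none; 6051 accessions matched Sscrofa11.1, which changed 443 symbols. Probes with a mean above the 30th percentile were kept, and each gene took its brightest, which left 3773 of 4560 genes. limma 3.58.1 (R 4.3.3) was fitted to 4 group means without a sow block (4 residual and 5.39 prior degrees of freedom) and tested on simulated data. Tests are two-sided and called under an adjusted p of 0.05. A gene not above background in 1 population has a bound, the brighter mean against the higher of threshold and value, given as "at least". The number of arrays limits the precision, and nothing beyond the 2 sows measures biological spread. Samples of 1 sow are paired by animal. The deviations of its 2 blood samples from their group means correlated at 0.05 across genes. Between blood and colostrum such deviations correlated at 0.284 in CD8 single positive and at 0.219 in double positive cells.

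The 28 gene lists, and the comparison itself, were chosen with earlier results of these data known. Genes named are those of the sort, the 12 highest and 12 lowest at least 2-fold in both sows and above background in the brighter population, up to 4 members of each list with the same sign in both sows, all detected markers of other cells, and the 6 largest gaps between blood and colostrum. Alternatives were 75th percentile scaling, cyclic loess, quantiles of the blood samples alone, normexp, the matrix, a floor at the 95th percentile of the negative controls, 2 other filters, the mean of a gene's probes, 3 sow blocks, blood samples alone and leaving out each sample; the block by sow and population was chosen after seeing the data. Probes were kept fixed where only the scaling changed. No sequence of probes or proteins was used here.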

Additional observations from a re-analysis of the deposited data

How the results depend on the processing

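Among 2519 values of the 115 named genes under 22 alternative settings, 2466 kept their direction and side of the threshold, 46 turned sign and 7 newly passed the test. The 3 sow blocks, the fits to blood samples alone and leaving out a colostrum sample cannot change a difference in blood. Under these settings its direction was fixed in advance. As the main fit called 0 genes, none could lose a call. The count of called genes in blood moved from 0 to 1 lower with cyclic loess, 2 lower with normexp, 1 lower with only probes above background in a blood group, and 7 higher and 8 lower with the floor at the 95th percentile of the negative controls, under which the gaps between blood and colostrum gave 6 higher and 5 lower. The higher floor sets dim values equal, which reduces their spread by construction. Leaving out each sample gave 0 to 0 calls, higher or lower, in blood and for the gaps. With the sow as a replicate block (samples paired by animal), 0 genes were called and the adjusted p of CCL5 was 0.0716. It was 0.0576 with a random block of sow within source, 0.0813 with a random block of sow and population and 0.224 to 0.818 with 1 sample left out. Under single settings these differences turned sign, and the cause was not tested: CD3G was 0.11 with 75th percentile scaling; CD163 was -0.010 and MRC1 -0.0037 with normexp; CD86 was 0.12 and S100A12 0.38 with the higher floor; AIF1 was 1.31 with probes above background. With the mean of a gene's probes IL7R was -0.0050, IFIT3 -0.32, CASP8 -0.041, XIAP -0.16, INSIG1 0.021, RPL6 0.070, CD163 -0.35, AIF1 0.38, CD86 0.42 and SHC1 -0.23. With 1 sample left out, the differences that turned sign ranged from -0.20 to 0.28 for CD3E, -0.49 to 0.29 for CD3G, -1.73 to 0.29 for SLA-DMA, -0.012 to 0.74 for IRF1, -0.12 to 1.09 for PGK1, -0.14 to 1.00 for PDK1, -0.49 to 0.17 for INSIG1, -0.87 to 0.60 for FCRLA, -0.87 to 0.96 for CD163, -1.47 to 0.36 for AIF1, -0.66 to 1.19 for MRC1, -1.31 to 0.63 for CD86, -0.38 to 1.65 for S100A8, -2.57 to 1.90 for S100A12, -0.078 to 0.28 for ITGA2B, -2.85 to 0.17 for CSN1S1, -0.23 to 1.02 for CSN2, -1.33 to 0.25 for CSN3, -0.11 to 1.60 for KRT8 and -0.11 to 0.66 for MUC1. The medians of the granule (-0.90 to -0.14), chemokine (-2.72 to -0.28), helper (0.31 to 1.64), NK type (-1.71 to -0.86) and MHC class II lists (-0.96 to -0.55) kept their sign under all 22. The settings that cannot change a blood difference are among the 22. The main limits are 2 animals, amplified RNA, and signal over background: a probe dim in 1 population has only a bound.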

Other observations

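The ATRIP probe that was bright in CD8 single positive blood cells of sow 1 only (14.16) showed the same pattern in colostrum, where it was at 15.96 in CD8 single positive cells of sow 1, 6.36 in those of sow 2, and 5.60 and 6.01 in double positive cells of sow 1 and sow 2. The other ATRIP probe was above background on no blood array. The pattern was chosen after the values were seen, and no test was made of it. Whether the blood and colostrum samples of CD8 single positive cells of sow 1 shared an array is not known. The colostrum values are therefore not known to be a separate showing of the pattern.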
